A study of Mus musculus with 12 samples.

Results

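Amino acid shortage and unfolded protein in the endoplasmic reticulum (ER) are sensed by pathways that share some of their outputs, and 36 mouse genes of these pathways were followed here, out of 48795 genes in the count table. The members were named by symbol and matched to the table through the Ensembl identifiers of the GENCODE vM21 annotation, not by their values, and all 36 were found. The list was chosen with earlier results of these data known. All 36 also passed the filter on low values, which left 14856 genes for testing. The members fell into 6 role groups. These were stress transcription factors and feedback genes (8), serine and one-carbon genes (5), other amino acid synthesis genes (4), amino acid transporters (3), ER stress sensors and transcription factors (4) and ER chaperones and folding factors (12). The first 4 groups, 20 genes, are called the ATF4 arm below.

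The samples were colonic organoids, that is, crypt epithelium grown in matrigel, from mice on a C57BL/6 background. Wild-type (WT) and AhR deficient (KO) organoids were each profiled in a stem cell condition (WENR medium, which supplies Wnt-3A along with EGF, Noggin and R-spondin 1) and after differentiation (ENR medium, 3 days without Wnt-3A), with 3 libraries in each of the 4 groups. AhR is a ligand-activated transcription factor, and Wnt-3A is the signal that keeps crypt stem cells dividing. The labels give neither the age nor the number of mice, nor how the Ahr allele was made. They do not say either whether libraries with the same group label had separate animals or cultures as their source, so the p-values below cover library-to-library spread alone, which may be technical.

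ATF4 is made when kinases of the eIF2 alpha family slow general translation in cells short of amino acids or under ER stress. It binds amino acid response elements and drives genes for serine and asparagine synthesis, amino acid uptake and aminoacyl-tRNA charging, together with the transcription factor CHOP (Ddit3) and feedback genes. In the unfolded protein response proper, the sensors IRE1 (Ern1) and ATF6 act through XBP1 and cleaved ATF6, which bind ER stress response elements (ERSE) in the promoters of chaperone genes. Secretory cells, among them the goblet cells of the colon, rely on this branch and also carry IRE1 beta (Ern2).

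The promoter windows differed between the arms in their ERSE matches. Of the 36 members, 30 had a RefSeq promoter window (GRCm38.p6, 250 bases before to 50 after the start). The entries for Atf6, Slc7a5, Manf, Ern2, Hyou1 and Cth were missing. An ERSE, spelled CCAAT and CCACG with 9 free bases between them, on either strand, was found in 6 of the 10 chaperone windows and in none of the other 20 member windows, against 0.119% of all 32851 windows (39 windows). Its relative ERSE-II (ATTGG and CCACG with 1 free base between them, 0.0365% of windows) was found in Herpud1, and the XBP1 element UPRE (TGACGTG, 2.01% of windows) in Hspa5. The amino acid response core CARE (TGATGNAA, 3.97% of windows) was found in 6 windows, namely Atf3, Chac1, Trib3, Asns, Pycr1 and Herpud1, the match in Trib3 lying 14 to 21 bases after the start. It was found in 0 of the 5 serine and one-carbon windows and 0 of the 2 transporter windows. No matches overlapped each other. A match describes letters only, and the absence of one covers only this window. The ERSE is already known as an element of chaperone promoters, as given above, so its matches there are no independent result. The stretches with matches upstream of the start are shown because they set the chaperone genes beside genes of the ATF4 arm. Each reads 5′ to 3′ on the strand of its gene with the matches in capitals, the chaperone genes first and the ATF4 arm last.
Hspa5: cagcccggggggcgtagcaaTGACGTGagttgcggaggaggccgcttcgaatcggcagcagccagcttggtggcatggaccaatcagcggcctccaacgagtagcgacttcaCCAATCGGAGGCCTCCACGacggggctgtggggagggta
Calr: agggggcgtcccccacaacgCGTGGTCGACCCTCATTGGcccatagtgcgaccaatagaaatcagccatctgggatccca
Hsp90b1: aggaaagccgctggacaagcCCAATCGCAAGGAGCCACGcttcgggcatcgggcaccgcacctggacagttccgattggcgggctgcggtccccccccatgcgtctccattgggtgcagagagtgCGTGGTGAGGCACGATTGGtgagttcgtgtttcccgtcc
Pdia6: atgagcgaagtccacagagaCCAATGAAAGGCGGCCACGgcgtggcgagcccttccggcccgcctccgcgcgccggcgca
Dnajc3: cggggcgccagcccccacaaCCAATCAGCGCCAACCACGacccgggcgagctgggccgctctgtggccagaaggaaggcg
Creld2: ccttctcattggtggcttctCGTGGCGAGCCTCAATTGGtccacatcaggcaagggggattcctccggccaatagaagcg
Herpud1: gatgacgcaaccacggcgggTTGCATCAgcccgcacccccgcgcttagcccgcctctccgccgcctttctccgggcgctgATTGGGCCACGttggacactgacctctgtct
Asns: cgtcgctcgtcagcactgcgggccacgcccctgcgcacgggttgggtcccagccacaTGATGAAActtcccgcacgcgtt
Pycr1: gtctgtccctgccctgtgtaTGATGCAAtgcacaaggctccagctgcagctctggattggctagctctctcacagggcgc
Atf3: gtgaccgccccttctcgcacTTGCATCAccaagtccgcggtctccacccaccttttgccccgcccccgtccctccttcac
Chac1: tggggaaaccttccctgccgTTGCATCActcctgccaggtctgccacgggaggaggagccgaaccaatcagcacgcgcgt

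In the Hspa5 stretch, chr2:34771913-34772063 (plus strand), the first capitals are the UPRE and the later ones the ERSE. The Hsp90b1 stretch, chr10:86705513-86705676 (minus strand), holds an ERSE on each strand. In Herpud1, chr8:94386297-94386407 (plus strand), the first capitals are a CARE read on the opposite strand and the later ones the ERSE-II. The other chaperone stretches hold 1 ERSE each, at chr8:84847034-84847113 (minus strand) for Calr, chr12:17266471-17266550 (plus strand) for Pdia6, chr14:118937807-118937886 (plus strand) for Dnajc3 and chr15:88819500-88819579 (plus strand) for Creld2. Those of the ATF4 arm hold 1 CARE each, at chr6:7693210-7693289 (minus strand) for Asns, chr11:120643792-120643871 (minus strand) for Pycr1, chr1:191183384-191183463 (minus strand) for Atf3 and chr2:119351029-119351108 (plus strand) for Chac1.

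Values are normalized counts, that is, read counts per gene that the authors divided by a library size factor. Recovered depth was 25.1 to 99.0 M reads per library. A gene was called when its Benjamini-Hochberg adjusted p in limma, over all 14856 genes, was under 0.05, and errors of log2 changes are standard errors. The organoids carried epithelial markers at a high level, with Epcam at 30131 to 117693 in the 12 libraries. The summed level of 7 immune and endothelial markers was 593 to 4557, nearly all of it the macrophage gene Cd68 (1617, 3301 and 3184 in WT stem, 4419, 4551 and 4385 in KO stem libraries and 566 to 1198 after differentiation), while the T cell gene Cd3e was at 0 throughout, and the part of these markers in the results was not tested. WT stem library 1 also held fibroblast RNA, with Vim at 13196 and a summed level of 22290 over 11 fibroblast markers, and KO stem library 3 held less (642). The other 10 libraries had sums of 52.1 to 168. Ahr itself was counted higher in KO than in WT libraries (2503 to 2831 against 1746 to 1909 in the stem condition), which leaves the deletion unchecked because reads of all its exons are summed, while its target Cyp1b1 lay at 269 to 571 in KO stem libraries against 7479 to 8502 in WT. As the organoids were measured in bulk, fewer cells of a type and less RNA per cell cannot be told apart.

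**Figure D1:**
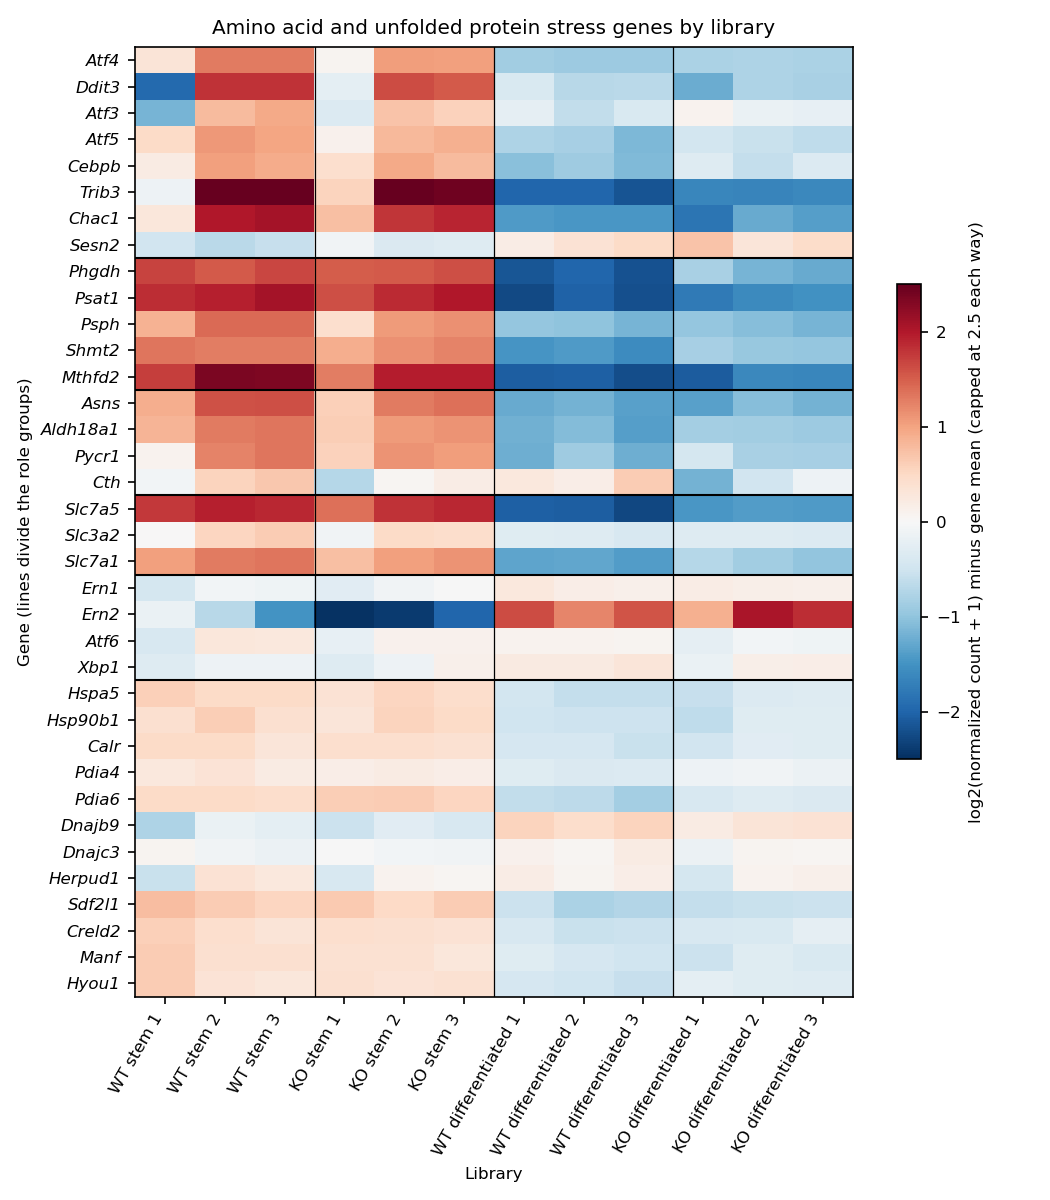
Level of the 36 genes (rows, in their role groups) in the 12 libraries (columns), as log2(normalized count + 1) minus the mean of the gene over the 12 libraries, on a colour scale that stops at 2.5 in each direction. The ATF4 arm is high in stem libraries, least so in library 1 of each genotype, and low after differentiation, with weaker colours in the chaperones.

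Differentiation lowered most of the 36 genes in both genotypes, and lowered the ATF4 arm more than the chaperones. In WT organoids 25 of 36 fell and 6 rose, against 72.2% of all genes called in either direction (36.3% up, 35.9% down). In KO organoids 25 fell and 4 rose, against 67.7% of all genes called (34.1% up, 33.6% down). Stem and differentiated libraries did not overlap for 30 of the 36 genes in each genotype, against 75.0% of all genes in WT and 74.3% in KO. The median log2 change of the ATF4 arm was -2.33 in WT and -1.86 in KO, where that of the 12 chaperones was -0.90 and -0.74 and that of all genes 0.01 in each. The difference between the arms was -1.42 in WT and -1.12 in KO. The mean over the ATF4 arm minus that over the chaperones, each gene relative to its own mean on the log2 scale, was 0.18, 0.997 and 1.13 in the WT stem libraries and 0.27, 0.87 and 0.93 in the KO stem libraries. After differentiation it was -0.86, -0.75 and -0.85 in WT and -0.55, -0.68 and -0.69 in KO, so every differentiated library lay below every stem library. The 8 proliferation markers fell as well, all 8 of 8 in both genotypes, and their summed level went from 92403 to 110785 in WT stem libraries to 19241 to 20813 after differentiation. Their part in the change of the ATF4 arm was not tested.

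**Figure D2:**
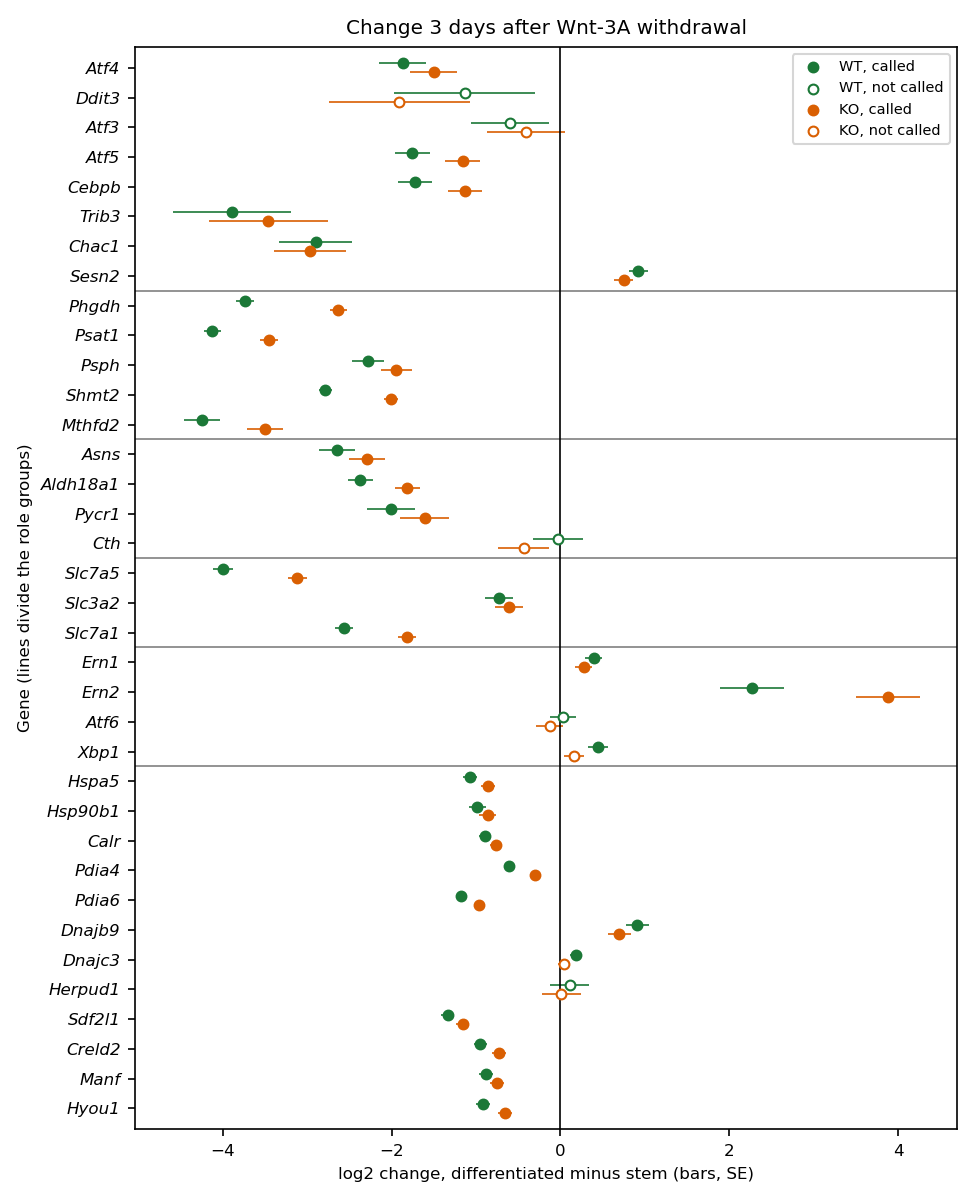
log2 change from the stem to the differentiated condition (x axis) for each gene in WT (green) and KO (orange), with bars for 1 standard error and filled points for called genes. The serine and one-carbon genes lie between -4.24 and -1.94, and the chaperones between -1.34 and 0.91.

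The serine and one-carbon genes made the most uniform group, and all 5 of 5 fell in both genotypes. Psat1, the aminotransferase of serine synthesis (chr19:15904678-15947337), stood at 20282, 21659 and 23832 in WT stem libraries and at 1176, 1377 and 1224 after differentiation. In KO libraries it stood at 17250, 20484 and 22371, and then at 1658, 1852 and 1958. Its mean was thus 17.4-fold lower after differentiation in WT and 11-fold lower in KO (log2 changes -4.12 ± 0.10, adjusted p = 3.25e-10, and -3.45 ± 0.10, adjusted p = 1.41e-09).

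Phgdh, which catalyses the first step of serine synthesis (chr3:98313170-98339990), was at 15247, 13818 and 15170 in WT stem libraries and at 13620, 13689 and 14437 in KO. After differentiation it was at 1076, 1205 and 1043 in WT and at 2690, 2126 and 1976 in KO. The stem libraries of both genotypes lay within a narrow band, and the differentiated WT libraries all lay below the differentiated KO libraries. It fell by 3.73 ± 0.10 in WT and by 2.63 ± 0.10 in KO on the log2 scale (adjusted p = 3.7e-10 and 4.08e-09). Mthfd2, a mitochondrial folate dehydrogenase (chr6:83305691-83325908), had the largest change of the group in both genotypes, from 4702, 7217 and 7094 to 337, 343 and 304 in WT and from 3417, 5524 and 5511 to 334, 464 and 457 in KO. These were log2 changes of -4.24 ± 0.21 and -3.50 ± 0.21. Shmt2, the mitochondrial enzyme that passes the carbon of serine to folate, fell 6.89-fold in WT and 4.03-fold in KO, and Psph, the last enzyme of serine synthesis, fell 4.93-fold and 3.94-fold.

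Of the stress transcription factors and feedback genes, 5 of 8 fell and 1 rose in each genotype. Atf4 (chr15:80255184-80257541) stood at 11122, 21700 and 21960 in WT stem libraries and at 9316, 18364 and 18007 in KO stem libraries. After differentiation it stood at 4860, 4708 and 4749 in WT and at 5105, 5192 and 5101 in KO. The differentiated libraries formed a tight group, and the stem libraries split into library 1 and the other two in each genotype. Its log2 change was -1.87 ± 0.28 in WT (adjusted p = 7.57e-05) and -1.50 ± 0.28 in KO (adjusted p = 4.82e-04).

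Trib3, a pseudokinase that feeds back on the ATF4 response (chr2:152337422-152344032), was at 1048, 7978 and 8336 in WT stem libraries and at 1695, 6483 and 6210 in KO stem libraries. It was at 288, 289 and 254 in differentiated WT and at 369, 366 and 376 in differentiated KO libraries. No differentiated library reached the lowest stem library, and the mean was 20.9-fold lower in WT and 13.0-fold lower in KO (log2 changes -3.89 ± 0.70 and -3.46 ± 0.70, adjusted p = 3.68e-04 and 0.0010). Chac1, which degrades glutathione (chr2:119351229-119354381), was at 799, 2641 and 2799 in WT and 1105, 2257 and 2445 in KO stem libraries, and fell to 246, 239 and 239 and to 184, 274 and 251, a change of -2.90 ± 0.43 in WT and -2.97 ± 0.43 in KO. Atf5 and Cebpb, which are factors of the same bZIP class, fell 3.41-fold each in WT and 2.29-fold and 2.21-fold in KO.

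Ddit3, which encodes CHOP (chr10:127290774-127296288), did not pass the test in either genotype. It stood at 302, 4070 and 4068 in WT stem libraries against 893, 720 and 734 after differentiation, and at 985, 3625 and 3379 against 496, 684 and 669 in KO. WT stem library 1 thus lay below all differentiated WT libraries while the other two lay well above them. The log2 change was -1.13 ± 0.84 in WT (adjusted p = 0.241) and -1.91 ± 0.84 in KO (adjusted p = 0.0623). With the replicate number as a block within each genotype, a pairing that the data bore out for KO, the KO change passed (adjusted p = 0.047). Without library 1 of both stem groups the change was -2.38 in WT (adjusted p = 3.52e-07) and -2.52 in KO (adjusted p = 4.03e-07). That exclusion was chosen after seeing the data and removes the lowest stem libraries for Ddit3, so a larger fall without them was built in. Ddit3 overlaps Mars on the opposite strand, and reads in a shared stretch cannot be told apart where strand was not used. Atf3 did not pass either (-0.60 ± 0.46 in WT and -0.41 ± 0.46 in KO). It passed without both library 1 samples (adjusted p = 1.28e-05 and 6.17e-04), which were its lowest stem libraries as well, so the same limit holds. Sesn2, a leucine sensor and inhibitor of mTORC1, went the other way, from 2227 to 2543 in WT stem libraries to 4070 to 4997 after differentiation, and rose by 0.92 ± 0.11 in WT and 0.75 ± 0.11 in KO.

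Asns, asparagine synthetase (chr6:7675169-7693254), was at 10588, 16980 and 17256 in WT stem libraries and at 8524, 13815 and 14606 in KO stem libraries. It was at 2333, 2486 and 2181 in differentiated WT and at 2193, 2694 and 2479 in differentiated KO libraries. The groups did not overlap, and the change was -2.65 ± 0.21 in WT and -2.29 ± 0.21 in KO. The proline enzymes fell with it, Aldh18a1 by 5.22-fold in WT and 3.55-fold in KO and Pycr1 by 4.30-fold and 3.08-fold. Cth, which makes cysteine from cystathionine, was not called in either genotype (-0.03 ± 0.30 and -0.43 ± 0.30). In KO it passed with the block within genotype (adjusted p = 0.0166).

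All 3 transporters fell in both genotypes. Slc7a5, the light chain of the large neutral amino acid transporter (chr8:121881150-121907694), was at 11807, 13316 and 12932 in WT stem and 9004, 12210 and 12890 in KO stem libraries, and at 845, 831 and 718 and at 1263, 1329 and 1298 after differentiation. It fell 15.9-fold in WT and 8.77-fold in KO. Its heavy chain Slc3a2, which also pairs with other light chains, fell only 1.69-fold and 1.55-fold, and the arginine and lysine carrier Slc7a1 fell 5.94-fold and 3.54-fold.

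Among the chaperones 9 of 12 fell in each genotype, by 1.23-fold to 2.52-fold, while 2 rose in WT and 1 in KO. Hspa5, which encodes the ER chaperone BiP (chr2:34771970-34777547), was at 54260, 50449 and 49907 in WT stem libraries and at 46341, 52100 and 48760 in KO stem libraries. It was at 26273, 23652 and 23720 in differentiated WT and at 24133, 28577 and 28769 in differentiated KO libraries. The stem and differentiated libraries were well apart and library 1 was not low in WT, and the change was -1.07 ± 0.08 in WT (adjusted p = 3.01e-07) and -0.86 ± 0.08 in KO (adjusted p = 2.68e-06).

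Sdf2l1, part of the BiP chaperone complex, had the largest fall of the chaperones (2.52-fold in WT and 2.23-fold in KO), followed in WT by the disulfide isomerase Pdia6 (2.25-fold and 1.95-fold). Hsp90b1 (GRP94), the lectin chaperone Calr, Creld2, Manf and Hyou1 fell 1.85-fold to 1.98-fold in WT and 1.58-fold to 1.81-fold in KO, and Pdia4 fell 1.52-fold and 1.23-fold. The J-domain protein Dnajb9, a known XBP1 target that acts on BiP, rose from 546 to 828 to 1265 to 1368 in WT, a change of 0.91 ± 0.14, and by 0.70 ± 0.14 in KO. Dnajc3, which restrains the eIF2 alpha kinases, rose by 0.18 ± 0.07 in WT (adjusted p = 0.0416), with 0.04 ± 0.07 in KO, and the WT call was lost without WT stem 2 or 3, KO stem 2 or 3, or WT differentiated 1 or 3 (adjusted p up to 0.152). Herpud1, which serves ER-associated degradation, was not called (0.11 ± 0.23 and 0.01 ± 0.23).

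None of the 4 ER sensors and factors was called lower after differentiation with all 12 libraries fitted. Ern1, which encodes IRE1 alpha (chr11:106394650-106487852), was at 2155, 2779 and 2713 in WT stem and 2413, 2762 and 2924 in KO stem libraries, and rose to 3502, 3299 and 3184 and to 3323, 3233 and 3214, that is, by 0.39 ± 0.10 and 0.28 ± 0.10. The KO call was lost without KO stem 1 or any KO differentiated library (adjusted p up to 0.111). Xbp1, the factor that IRE1 splices (chr11:5520659-5525893), was at 3820, 4402 and 4396 in WT stem libraries and 5595, 5629 and 5906 after differentiation, a rise of 0.44 ± 0.12 (adjusted p = 0.0049). In KO it was at 3848, 4371 and 5253 and then 4267, 5302 and 5405, which overlapped, with a change of 0.16 ± 0.12 that was not called. Gene counts do not separate spliced from unspliced Xbp1.

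Ern2 (chr7:122169893-122186207) had the largest rise among the 36 genes and the lowest level per length. It stood at 27.7, 18.8 and 10.4 in WT stem libraries and at 4.85, 5.14 and 7.13 in KO stem libraries, with as few as 7 reads in a library. After differentiation it was at 99.2, 74.1 and 95.4 in WT and at 58.7, 133 and 115 in KO. The means were 4.72-fold higher in WT and 17.9-fold higher in KO, with log2 changes of 2.27 ± 0.38 and 3.88 ± 0.38 whose difference was not called (adjusted p = 0.0794). The summed level of 10 goblet markers rose as well, from 4011 to 4608 to 16154 to 21955 in WT and from 3384 to 4446 to 8862 to 22300 in KO. The lowest differentiated sum was in the same KO library 1 that held the least Ern2. In WT stem libraries 1 to 3 the sum rose instead (4011, 4441 and 4608) as Ern2 fell. Whether goblet cells account for the rise of Ern2 was not tested. Atf6 (chr1:170704674-170867771) was at 3500, 5609 and 5544 in WT stem and 3973, 4979 and 4946 in KO stem libraries, and at 4897, 4909 and 4820 and 3971, 4386 and 4295 after differentiation, with no call (0.03 ± 0.16 and -0.13 ± 0.16). Without library 1 of both stem groups it was called lower after differentiation in both genotypes, at -0.19 in WT (adjusted p = 0.00506) and -0.24 in KO (adjusted p = 0.00173). That exclusion was chosen after seeing the data and removes the lowest stem libraries for Atf6.

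Per kilobase of exon, Calr, Hspa5 and Hsp90b1 were the most abundant members in both conditions. In WT stem organoids Calr had 20537 normalized counts per kb, Hspa5 12187 and Hsp90b1 9554, followed by Atf4 with 7744 and Phgdh with 5931. After differentiation Calr had 11047 and Hspa5 5805, while Atf4 had 2024 and Phgdh 446. Ern2 was lowest, with 6.40 and 30.2.

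Library 1 stood apart in the stem condition of both genotypes, mostly in the ATF4 arm and the ER sensors. Of the 20 genes of the ATF4 arm 17 were lowest in library 1 of both stem groups, as were 3 of the 4 sensors (Ern1, Atf6 and Xbp1), against 3 of the 12 chaperones and 21.6% of all genes. Ddit3, Trib3 and Chac1 were at or under 0.5 times the next lowest library in both groups, which held for 0.949% of all genes. The next lowest library held 13.5 times as much Ddit3 as library 1 in WT and 3.43 times in KO, with 7.61 times and 3.66 times for Trib3 and 1.95 times and 1.93 times for Atf4. The serine and one-carbon genes shared this in part. Psat1, Psph and Mthfd2 were lowest in library 1 of both stem groups, Mthfd2 at 4702 against 7217 and 7094 in WT, while Phgdh and Shmt2 had their highest WT stem value in library 1. In KO stem organoids both were lowest in library 1, Phgdh by a small margin (13620 against 13689 and 14437) and Shmt2 at 9753 against 11387 and 12269. The median fold between the highest and lowest library was 2.74 in WT stem and 2.02 in KO stem for the stress transcription factors and feedback genes. For the chaperones it was 1.17 and 1.08, and for the 12161 genes with a mean of at least 50 it was 1.21 and 1.14. In the differentiated condition the stress group spread no more than 1.22-fold in the median. The fibroblast RNA of WT stem library 1 was not seen in KO stem library 1, where Vim was at 37.2, and the part of either library's makeup in the low values was not tested.

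**Figure D3:**
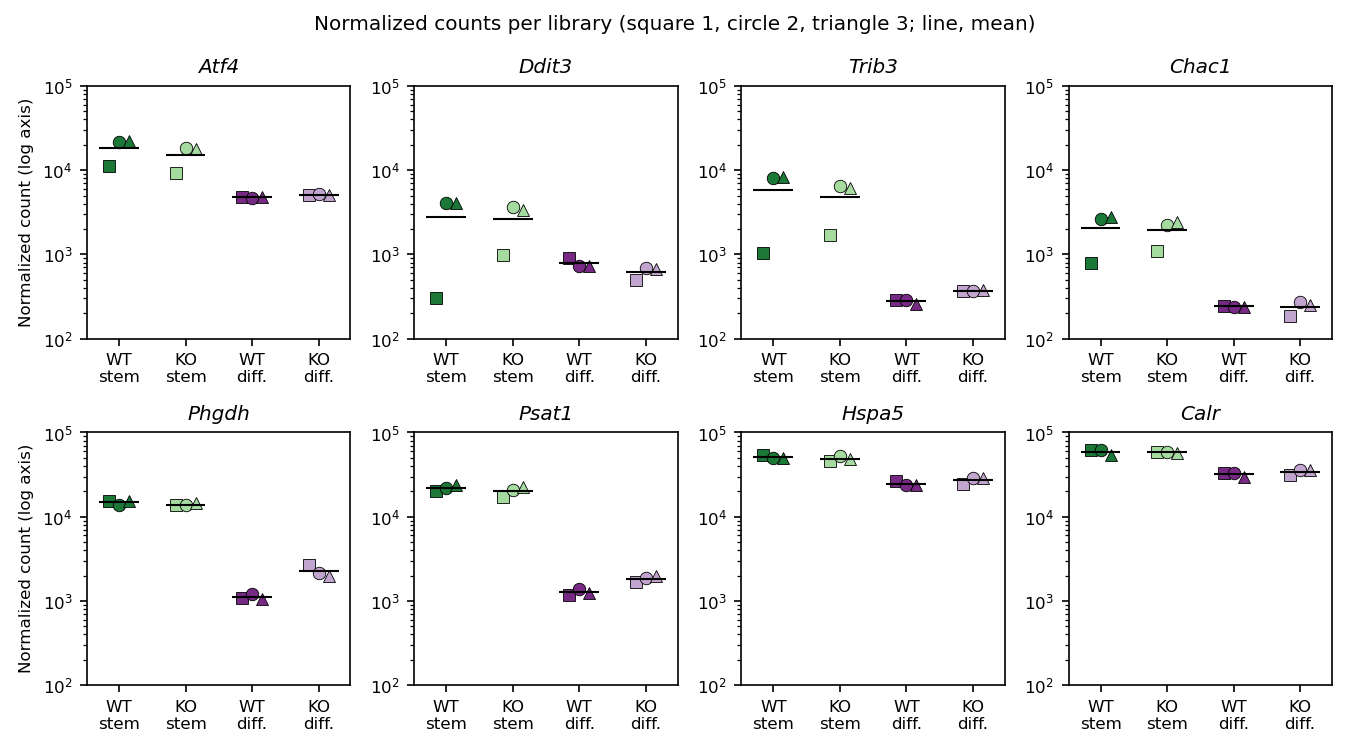
Normalized counts (log axis) of 8 genes in each library, by group, with squares for library 1, circles for 2, triangles for 3 and lines for group means. Stem library 1 lies below the other stem libraries for Atf4, Ddit3, Trib3 and Chac1 in both genotypes, while Phgdh, Psat1, Hspa5 and Calr lie close together within each group.

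**Figure D4:**
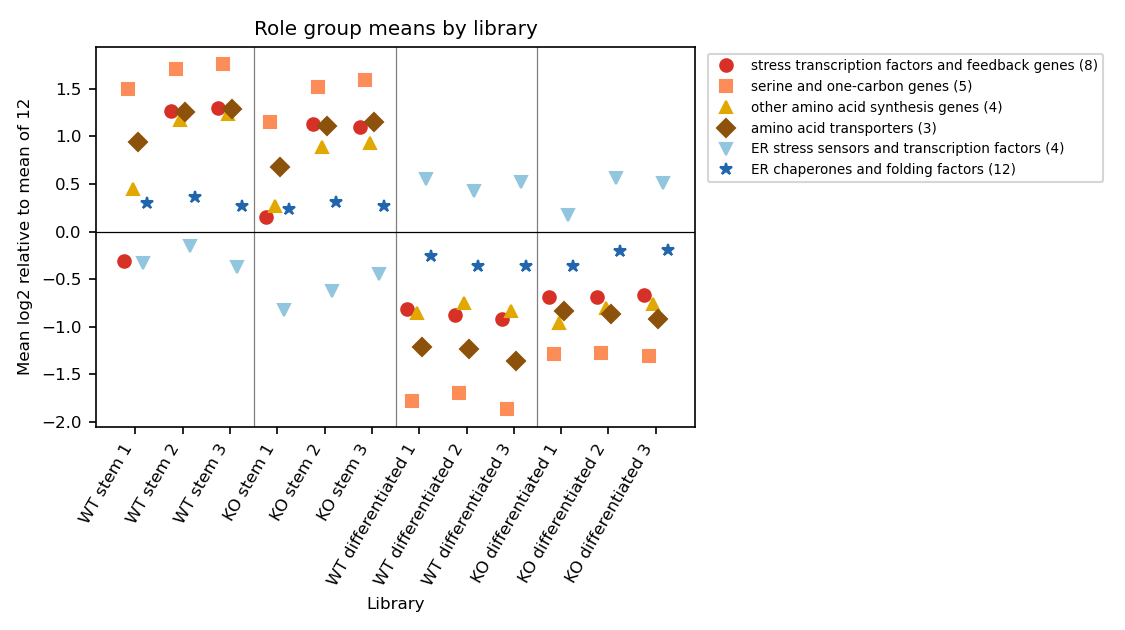
Mean log2 level of each role group (numbers of genes in the legend) in each library, relative to its mean over the 12 libraries. The stress transcription factors drop in stem library 1 of both genotypes, the serine and one-carbon genes span the widest range between conditions, and the chaperones span the narrowest of the groups that fell.

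The effect of AhR loss was asked in each culture condition. In stem organoids 1 of the 36 genes was called, against 6.57% of all genes (3.48% up, 3.09% down). This was Ern2, whose mean was 3.33-fold lower in KO (log2 change -1.49 ± 0.38, adjusted p = 0.0392). It rests on the low counts given above, and the call held only without WT stem 3 or without KO differentiated 1 or 2 when libraries were left out 1 at a time. The chaperones lay between -0.13 and 0.14 and the serine genes between -0.40 and -0.08, none called, which does not show that they were equal. The groups did not overlap for 5 of the 36 genes, against 29.5% of all genes. Without library 1 of both stem groups, an exclusion chosen after seeing the data, Atf4 was lower in KO by a called margin (-0.26, adjusted p = 0.00986). So was Trib3 (-0.36, adjusted p = 0.030), and Ern2 was not called. In that fit 4.48% of all genes were called. For Trib3 the exclusion removed 1048 in WT and 1695 in KO, where KO was the higher, so a shift towards lower KO values was built in. For both genes it removed the lowest library of each group, which also narrowed the spread. Of the genes called in this comparison 53.0% were higher in KO, a share that was 67.3% with edgeR on recovered reads and 42.3% with DESeq2.

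After differentiation 8 of the 36 genes were higher in KO and 1 was lower, against 27.6% of all genes called (13.8% up, 13.9% down). The groups did not overlap for 21 of the 36, against 53.1% of all genes. The median log2 change was 0.34 for the ATF4 arm, 0.12 for the chaperones and 0.02 for all genes, a difference of 0.22 between the arms that was 0.12 without KO differentiated 1 and 0.090 under quantile normalization. Library 1 of both stem groups enters this comparison through the shared estimate of spread alone. Leaving both out, a choice made after seeing the data, raised the calls to 15 up and 3 down, and those over all genes from 4103 to 5894 (39.7%).

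Of the serine and one-carbon genes 3 of 5 were higher in differentiated KO than in WT organoids. Phgdh, with the values given above, was 2.04-fold higher (1.02 ± 0.10, adjusted p = 1.75e-04). Shmt2 (chr10:127517123-127522444) was at 1875, 1934 and 1749 in WT and 2932, 2704 and 2647 in KO, 1.49-fold higher (0.58 ± 0.08, adjusted p = 0.00105), and Psat1 was 1.45-fold higher (0.53 ± 0.10, adjusted p = 0.00467). For each of these 3 genes every KO library lay above every WT library, and the calls held whichever library was left out. Mthfd2 (0.34 ± 0.21) and Psph (-0.02 ± 0.19) were not called.

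Of the transporters Slc7a5 was 1.62-fold higher in KO (0.70 ± 0.12, adjusted p = 0.00241) and Slc7a1 1.41-fold, at 3101, 3123 and 2912 in WT and 4691, 4235 and 3912 in KO (0.49 ± 0.11, adjusted p = 0.00831). Slc3a2 hardly differed (0.00 ± 0.16). Cebpb was higher by 0.59 ± 0.20, from 249, 275 and 239 to 409, 340 and 405, but close to the threshold (adjusted p = 0.0477), and its call held only without WT stem 1 or 2 or KO stem 1. Cth was lower, at 1254, 1169 and 1615 in WT and 459, 747 and 952 in KO, a change of -0.95 ± 0.30 (adjusted p = 0.0367), and its call was lost without any WT differentiated library and without KO differentiated 1 or 2 (adjusted p up to 0.147). Atf4 (0.10 ± 0.28), Ddit3 (-0.35 ± 0.84) and Asns (0.07 ± 0.21) were not called.

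Only the disulfide isomerases passed among the chaperones. Pdia6 (chr12:17266545-17284770) was at 6676, 6474 and 5703 in WT and 7774, 8179 and 8003 in KO (0.35 ± 0.06, adjusted p = 0.00296), and Pdia4 (chr6:47796141-47813430) was at 6904, 6671 and 6753 and at 7831, 7999 and 7755 (0.21 ± 0.05, adjusted p = 0.00705). Both pairs of groups were apart. Pdia6 and Dnajb9 lie on the chromosome of Ahr, 18.2 Mb and 8.67 Mb from it, and the part of this in their values was not tested. Hspa5 (0.14 ± 0.08), Calr (0.11 ± 0.07) and Hsp90b1 (0.10 ± 0.10) were not called. Hyou1 at 0.22 ± 0.08 missed the threshold (adjusted p = 0.071) and passed it without WT stem 1 (adjusted p = 0.00695). In the same fit Dnajb9, at -0.22 ± 0.14 (adjusted p = 0.247 with all libraries), was called lower (adjusted p = 0.0411). The sensors Ern1, Ern2, Xbp1 and Atf6 were not called, with changes between -0.21 and 0.12. Of the 8 proliferation markers 4 were higher and 1 lower in differentiated KO organoids, with sums of 21329 to 22482 against 19241 to 20813 in WT, and their part in these differences was not tested. Of the 8 epithelial markers 5 were lower in differentiated KO organoids and none higher, and their part was not tested either.

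**Figure D5:**
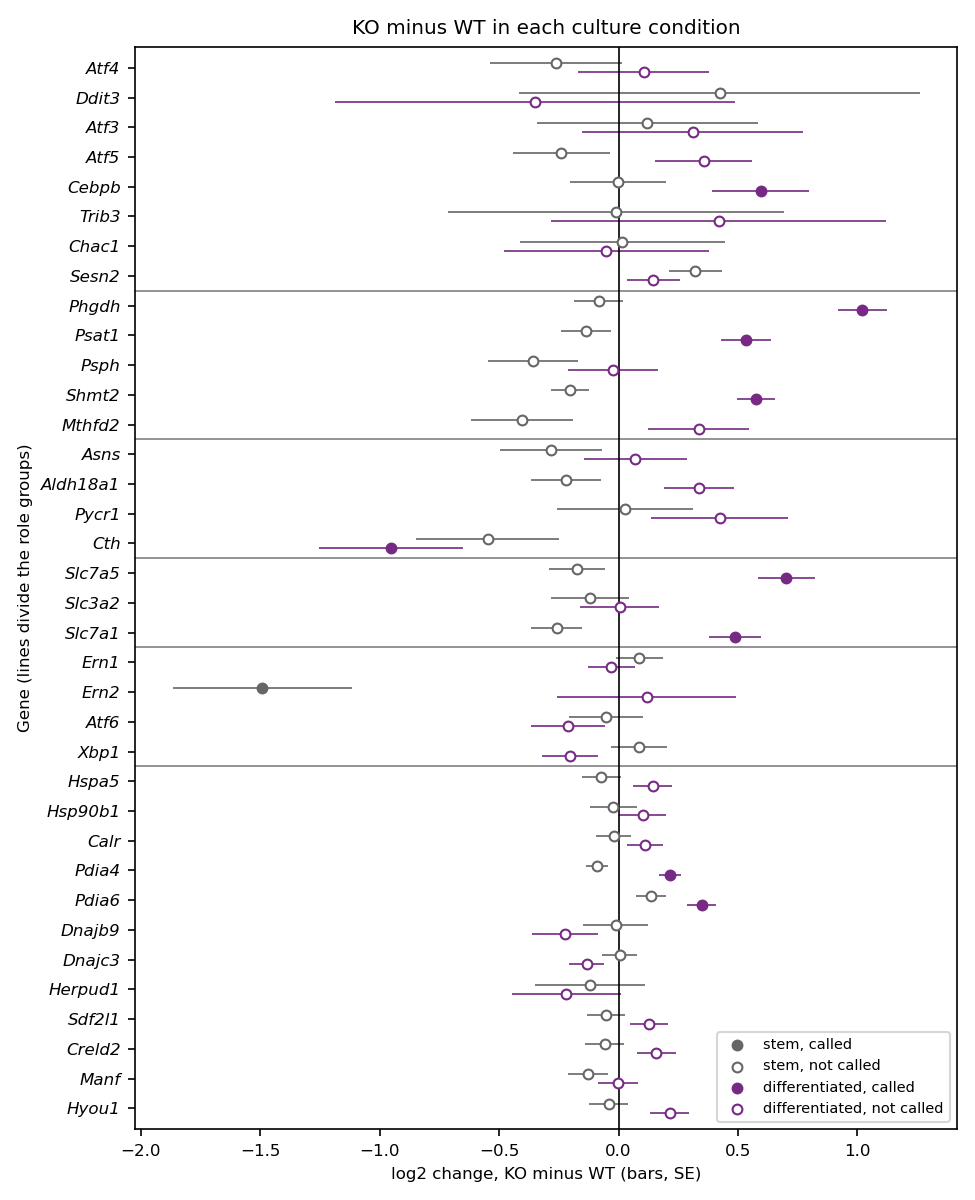
log2 change from WT to KO (x axis) for each gene in the stem (grey) and differentiated (purple) condition, with bars for 1 standard error and filled points for called genes. In the stem condition Ern2 is the called gene, and after differentiation Phgdh lies farthest to the right at 1.02 and Cth farthest to the left at -0.95.

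The differentiation response itself differed by genotype for 6 of the 36 genes, all with a smaller fall in KO, against 8.70% of all genes called (5.12% up, 3.58% down). The difference was 1.10 ± 0.14 for Phgdh (adjusted p = 0.00853), 0.88 ± 0.17 for Slc7a5 (adjusted p = 0.0157) and 0.78 ± 0.11 for Shmt2 (adjusted p = 0.0098). It was 0.75 ± 0.15 for Slc7a1, 0.67 ± 0.15 for Psat1 and 0.30 ± 0.06 for Pdia4. Phgdh, Shmt2 and Slc7a5 kept their calls whichever library was left out. Psat1, Slc7a1 and Pdia4 each lost theirs without WT differentiated 3, which left 3 called members and lowered the share of all genes called to 2.30%. Psat1 also lost its call without WT differentiated 1 or KO stem 1 or 2, and Pdia4 also without KO stem 1. All 5 serine and one-carbon genes had positive differences, of which 3 were called. Of the 8 proliferation markers 4 had a called positive difference and none a called negative one, with a median of 0.69. Their part in the differences of the 6 genes was not tested. The comparison uses the same 12 libraries as those above and is not a separate line of evidence.

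Other genes of the same pathways were counted over whole lists, chosen by pathway with earlier results of these data known. Their counts on differentiation stand beside 72.2% of all genes called in WT (36.3% up, 35.9% down) and 67.7% in KO (34.1% up, 33.6% down). Of 20 cytosolic aminoacyl-tRNA synthetases 18 fell on differentiation in WT and 17 in KO and none rose, with Yars at -2.14 ± 0.12 and -1.81 ± 0.12 and Mars at -1.75 ± 0.07 and -1.15 ± 0.07. In differentiated organoids 4 of the 20 were higher in KO, against 13.8% of all genes, among them Vars (0.55 ± 0.10, adjusted p = 0.00258). Of 16 other ATF4 targets 10 fell and 2 rose in WT, and 10 fell and 3 rose in KO. Stc2, a secreted glycoprotein, changed by -2.28 ± 0.18 in WT and the mitochondrial enzyme Pck2 by -2.35 ± 0.20. In differentiated organoids 2 of the 16 were higher in KO and none lower, against 13.8% of all genes higher, and the median change was 0.07. Pck2 was among the 2 (0.77 ± 0.20, adjusted p = 0.017). Of 12 other folate and one-carbon genes 7 fell and 1 rose in WT, and 7 fell and 2 rose in KO. Those that fell included Tyms, which serves thymidylate synthesis in dividing cells (-2.81 ± 0.13 in WT). In differentiated organoids 4 of these 12 were higher in KO, against the same 13.8%, with Mthfd1 at 0.57 ± 0.11 and Shmt1 at 0.45 ± 0.12.

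The lists on the side of the ER held calls in both directions, and their counts stand beside the 72.2% of all genes called in WT (36.3% up, 35.9% down) and 67.7% in KO (34.1% up, 33.6% down). Of 23 translocation and vesicle traffic genes 16 fell and 4 rose in WT and 17 fell and 4 rose in KO, with medians of -0.42 and -0.39. Of 21 other folding and degradation genes 9 fell and 5 rose in WT and 11 fell and 3 rose in KO, with Edem3, a mannosidase of ER-associated degradation, rising by 0.83 ± 0.09 in WT and lower in differentiated KO organoids (-0.45 ± 0.09). A list of 8 genes held the membrane-bound factors of the ATF6 and CREB3 class (Atf6b, Creb3 and Creb3l1 to Creb3l4) and the proteases that cleave them (Mbtps1 and Mbtps2), and all 8 were called in both genotypes, 4 in each direction. Creb3l1 changed by -2.46 ± 0.12 in WT, and in differentiated organoids was at 628, 520 and 500 in WT and at 1172, 1118 and 1063 in KO (1.03 ± 0.12, adjusted p = 4.79e-04). Of 7 eIF2 alpha kinases, phosphatases and subunits 3 rose and 2 fell in WT and 2 rose and 4 fell in KO. Eif2ak3, the ER stress kinase PERK, rose by 0.59 ± 0.09 in WT and 0.84 ± 0.09 in KO. In stem organoids 5 of the 107 genes of these lists were called between genotypes, against 6.57% of all genes. They were Mars (-0.33 ± 0.07), Wfs1 (0.80 ± 0.15), Sec62, Srp54a and Sec24d. Srp54a (chr12:55080262-55115367) lies on the chromosome of Ahr (chr12:35497974-35535038), as does Mthfd1 (chr12:76255298-76319803), and the part of this was not tested.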

How the data were processed

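RNA-seq of 12 libraries was analysed from the deposited table, a matrix of normalized counts (a signal) that the authors derived from gene-level counts. The submitters' processing notes name GRCm38, Bowtie2, RSEM 1.2.11 and DESeq2 1.18.1, and the annotation, the strand setting and any filter are not given in the sources used here. Within each library, 100% of values were integer multiples of a fixed step, to within a tolerance of 0.05 of a read, so read counts were recovered, 25.1 to 99.0 M per library, which limits precision for low genes such as Ern2. RSEM splits shared reads, so overlapping genes and close copies stay uncertain. Atf5, Cebpb, Ddit3, Manf, Pdia6, Psph and Slc7a5 overlap a gene that was counted at 1366 or more in some library.

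Sample titles gave the groups. The test was run on genes that reached a value of 10 in 3 or more libraries. log2(value + 1) was fitted in limma 3.58.1 with a mean for each of the 4 groups and 1 shared spread, with 5 contrasts (KO against WT in each condition, differentiated against stem in each genotype, and their difference) and Benjamini-Hochberg adjustment. A fold on this scale understates the change of low genes, and folds in the text are ratios of group means. Members and lists were chosen with earlier results of these data known. Members were described by role group, and values were given in every library for 12 members fixed by name (Atf4, Ddit3, Asns, Trib3, Chac1, Psat1, Phgdh, Hspa5, Xbp1, Ern1, Ern2 and Atf6) and for up to 3 called members of each role group and contrast, or by range. From each pathway list, up to 3 called genes with the largest changes and a mean of at least 50 were eligible to be named.

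Replicate numbers were checked for pairing by correlating deviations from group means. Same-numbered KO stem and KO differentiated libraries correlated at 0.191 to 0.286, over the limit of 0.1 in every pair, while the numbers of every other pair of groups did not all pass. Fits with the replicate block, with edgeR 4.0.16 and DESeq2 1.42.0 on recovered reads (edgeR called 943 genes in the stem and 4092 in the differentiated KO against WT comparison), and with other filters, pseudocounts and scalings were run as alternatives, as was leaving out each library. The fit was run on simulated data before use. Those data had independent libraries and changes in KO stem alone. They held no low library 1 and no change on differentiation, so the run does not cover these features. Promoters came from RefSeq (GRCm38.p6).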

Additional observations from a re-analysis of the deposited data

Results flagged for a closer look

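The change on differentiation differed between WT and KO organoids, by a test of the difference itself (limma interaction term, adjusted p under 0.05), for 6 of the 36 genes. Of all genes 8.70% were called in this test (5.12% up, 3.58% down). Each value is the KO log2 change minus the WT log2 change. It was 1.10 for Phgdh, 0.88 for Slc7a5, 0.78 for Shmt2, 0.75 for Slc7a1, 0.67 for Psat1 and 0.30 for Pdia4, each of which fell less in KO.

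Of the 107 other pathway genes 15 passed the same test (14.0%, against 8.70% of all genes). Up to 3 per list were taken from them, 12 in all. The difference was 0.54 for Slc1a5, a glutamine carrier, 0.54 for Iars, 0.60 for Mars and 0.56 for Vars, which are aminoacyl-tRNA synthetases, and 0.78 for Shmt1, 0.69 for Mthfd1 and 0.66 for Mtr, which handle folate-bound carbon. It was 1.07 for the membrane-bound factor Creb3l1. It was negative for the eIF2 alpha kinase PKR (Eif2ak2, -0.45), for the eIF2 alpha phosphatase subunit Ppp1r15b (-0.57), and for the ER mannosidase genes Edem1 (-0.49) and Edem3 (-0.51).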

How the results depend on the processing

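Of the member results recomputed under all settings, 4450 stayed on their side of the threshold (134 of them changed sign without a call), 67 became called, 54 lost a call and 1 turned, namely Atf6 on differentiation in WT, which was -0.19 and called (adjusted p = 0.00506) without library 1 of both stem groups, an exclusion chosen after seeing the data. In KO against WT stem organoids the count of called members was 0 with a pseudocount of 5, with no filter and with only the compared groups fitted, and 2 with the replicate block, without library 1 of both stem groups, and without WT stem 1 and KO stem 3 (also chosen after seeing the data). Over all genes the calls were 984, 731 and 297 in the first 3 of these settings and 1486, 665 and 1497 in the other 3, against 976 in the fit used above. In differentiated organoids the count of called members was 14 with only the compared groups and 18 without library 1 of both stem groups. The shares of all genes called were 30.6% and 39.7% in these fits, against 27.6% in the fit used above. The difference between the arms was 0.090 under quantile normalization. The interaction count was 11 without library 1 of both stem groups, where 7.09% of all genes were called, against 8.70% with all libraries. The interaction difference between the arms was 0.70 without WT stem 1 and KO stem 3. The cause of these shifts was not tested. Leaving out 1 library at a time gave 0 to 1 calls and arm differences of -0.39 to 0.03 for KO against WT in stem organoids, 7 to 12 and 0.12 to 0.27 in differentiated organoids, 30 to 33 and -1.66 to -1.27 for differentiation in WT, 28 to 30 and -1.31 to -0.97 in KO, and 3 to 8 and 0.0080 to 0.60 for the interaction. Over all 14856 genes these 5 ranges of calls were 363 to 1414, 2233 to 5699, 10085 to 10840, 9267 to 10743 and 342 to 1603. With the replicate block within genotype, 30 members were called in WT and 31 in KO on differentiation, beside 10909 and 10202 of all genes, and the pairing check held only between the KO groups. Depth limits Ern2, which had 7 to 9 reads in its lowest stem libraries.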

Other observations

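Several genes outside the 36 members were also lowest in library 1 of both stem groups. Gdf15, a stress-induced secreted factor, was at 820, 5372 and 6869 in WT stem libraries and at 2075, 6816 and 4926 in KO stem libraries. Aldh1l2, a mitochondrial folate enzyme, was at 367, 1743 and 1745 and at 604, 1669 and 1540. Ero1l, an oxidase of the ER, was at 15524, 91710 and 89520 and at 50507, 94980 and 83974. These genes were picked after their values were seen, and no test was run on the pattern.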
